A study of Mus musculus with 10 samples.

Results

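Gabpa, its beta partners and the regulators of mitochondrial transcription were followed in the hippocampus of Dp3Yah mice. The set held 10 of the 19939 genes measured, namely Gabpa, Gabpb1, Gabpb2, Nrf1, Ppargc1a, Esrra, Tfam, Tfb1m, Tfb2m and Polrmt. These genes were chosen by name for their roles, with earlier results of these data known. Each was read from the probe set annotated to it alone, with the highest mean where there were several. Dp3Yah males carried a segmental duplication of mouse chromosome 16 from Hspa13 to App, which leaves 3 copies of Gabpa against 2 in control males. The other 9 genes lie on other chromosomes or outside the duplication and are present in 2 copies in both groups. App itself is left incomplete in the added segment, as the methods state, so that Gabpa was the last whole gene at the distal end of the duplicated interval.

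Both groups were untreated littermate males of 16 weeks on the C57BL/6N background that the labels name, while the study's methods name C57BL/6J. The duplication is carried in every cell and throughout life, and the labels do not say how many litters the mice came from. Total RNA from both hippocampi of each mouse was hybridised to 1 Affymetrix Mouse Gene ST array, with 5 Dp3Yah and 5 control mice. Values are deposited on the log2 scale, so that a difference of 1 is a doubling. In bulk tissue, fewer cells of a type and less RNA per cell cannot be told apart.

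GABP is a transcription factor of the ETS family, also called nuclear respiratory factor 2. Gabpa encodes the alpha subunit, which binds DNA at GGAA motifs, and Gabpb1 and Gabpb2 encode beta subunits, which carry the activation domain. GABP and the unrelated factor NRF-1, encoded by Nrf1, bind promoters of respiratory chain genes and of the genes for mitochondrial transcription proteins. The coactivator PGC-1alpha, encoded by Ppargc1a, acts through these factors and through the oestrogen-related receptor ERRalpha, encoded by Esrra. In the mitochondrion, TFAM packages and bends the genome at its promoters, TFB2M opens them for the RNA polymerase POLRMT, and TFB1M methylates the ribosomal RNA of the small mitochondrial ribosomal subunit.

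The start of Gabpa faces that of its neighbour Atp5j, which encodes coupling factor 6 of the mitochondrial ATP synthase and is transcribed from the opposite strand. In the RefSeq annotation of GRCm38.p6, the start of Gabpa at 84835124 on chromosome 16 and the nearer start of Atp5j at 84834976 were 148 bases apart. The 147 bases between them, chr16:84834977-84835123 on the plus strand, are shown because they lie between the starts of 2 genes that Dp3Yah mice carry in 3 copies. Capitals mark the letters CCGGAAG, an ETS core that is read here on the minus strand as CTTCCGG, and CGCATGCG, in which the NRF-1 core GCATGCG occurs on both strands and overlaps itself.
between Atp5j and Gabpa: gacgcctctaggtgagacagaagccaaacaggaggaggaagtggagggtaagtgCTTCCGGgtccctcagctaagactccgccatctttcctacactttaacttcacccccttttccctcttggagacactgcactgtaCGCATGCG

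The RefSeq promoter windows, from 250 bases before to 50 after an annotated start, were searched on both strands for these letters. All 10 genes had a window, with 12 windows in all. The ETS core CCGGAAG was found in the windows of 3 genes, Gabpa, Tfam and Polrmt. Over all, it was in 8.86% of 32851 windows and 9.93% of 27025 genes. The longer form CCGGAAGTG was in 0 of the 12 windows and in 2.03% of all windows. The NRF-1 core GCATGCG was found in the windows of 4 genes, Gabpa, Esrra, Tfb2m and Polrmt. Over all, it was in 3.58% of windows and 4.01% of genes. The letters NAAGGTCA, bound by ERR receptors, were in 0 of the 12 windows and in 4.69% of all windows. Matches in the 4 genes other than Gabpa are shown with 8 bases on each side, 5′ to 3′ along each gene. The first letter of the match shown lay 47 bases before the start in Tfam, 43 and 132 before it in Polrmt, 34 before it in Esrra and 13 after it in Tfb2m. In Tfb2m the NRF-1 core also occurs on the other strand, from 12 bases after the start, and overlaps the match shown. Only exact matches to these letters were counted, so that other GGAA motifs in the windows are not covered. A match is a description of the letters and was not tested for binding.
Tfam ETS core: gccgcggaCCGGAAGtccgggct
Polrmt ETS core: taagagcgCTTCCGGcagtcgca
Polrmt NRF-1 core: tatttctgCGCATGCtctcttgc
Esrra NRF-1 core: cctgttttGCATGCGcaggccgg
Tfb2m NRF-1 core: ggtcgttcGCATGCGccattcgt

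The first comparison asked how the subunits of GABP stood in mice with an additional copy of Gabpa. Gabpa was higher in every Dp3Yah mouse than in every control mouse, while the values of both beta subunits overlapped between the groups. On chromosome 16 (84834891 to 84863783, GRCm38.p6), the Gabpa values were 8.03, 7.82, 7.83, 8.03 and 7.84 in the 5 Dp3Yah mice, against 7.62, 7.31, 7.48, 7.54 and 7.40 in the 5 control mice. The lowest Dp3Yah mouse, replicate 2, still lay above control replicate 1, the highest of its group. The difference of 0.44 on the log2 scale (SE 0.067, 95% interval 0.30 to 0.59) is a 1.36-fold level, with an interval of 1.23 to 1.5. With limma the adjusted p was 0.0785 over all genes, so that Gabpa did not pass the threshold of 0.05, although it ranked 5 of 19939 both by p and by the size of the rise. Its adjusted p was 0.0447 with a trended and robust variance and 0.0307 with array weights, both limma. The limma adjusted p was 0.223 with all probe sets tested, and between 0.0652 and 0.331 with any 1 mouse left out. Gabpa was past the upper threshold of FCROS, the rank test of the study, with f = 0.999. Over all genes, 4.59% were past the FCROS thresholds in either direction.

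Gabpb1, on chromosome 2, had values of 7.11, 7.08, 7.09, 7.20 and 7.21 in Dp3Yah mice, against 7.20, 7.28, 7.12, 7.14 and 7.30 in control mice. The groups overlapped, with 3 of 5 Dp3Yah mice below every control mouse. The change of Gabpb1 was -0.07 (SE 0.048, 95% interval -0.17 to 0.04, limma adjusted p = 0.937). Gabpb2, on chromosome 3, had values of 6.14, 5.90, 6.22, 6.21 and 6.25 in Dp3Yah mice, against 6.40, 6.08, 6.13, 6.43 and 6.44 in control mice. Dp3Yah replicate 2 was the lowest of the 10 mice, and control replicates 2 and 3 lay within the range of the Dp3Yah values. The change of Gabpb2 was -0.15 (SE 0.087, 95% interval -0.34 to 0.04, limma adjusted p = 0.922). FCROS put Gabpb2 past its lower threshold of 0.025 with f = 0.0226, and the change was -0.09 without Dp3Yah replicate 2.

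**Figure D1:**
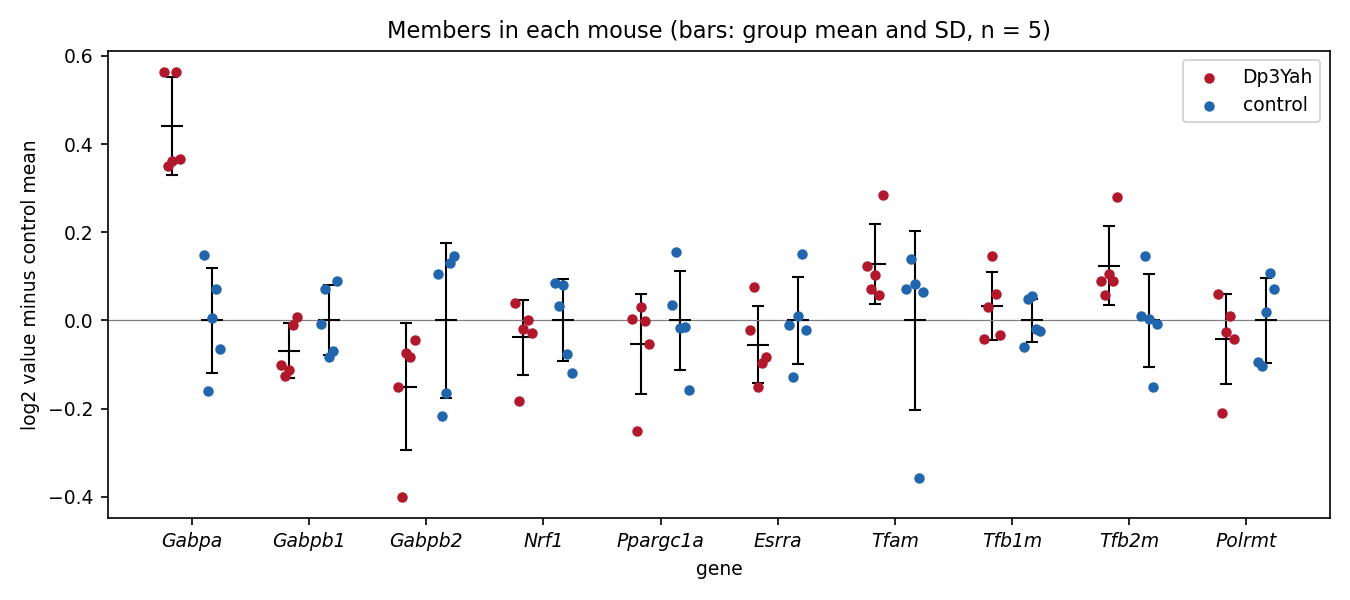
Log2 value of each of the 10 genes in each mouse, minus the control mean of that gene (y axis), with Dp3Yah mice in red to the left and control mice in blue to the right of each gene (x axis); bars give the group mean and SD, n = 5. For Gabpa all 5 Dp3Yah points lie above all control points, and for the other 9 genes the groups overlap.

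The subunits were also set against each other within each array, which removes what moves a whole array. Since 2 probe sets differ in how strongly they hybridise, only the change of this difference between groups has a meaning. The difference Gabpa minus Gabpb1 was 0.93, 0.74, 0.74, 0.84 and 0.62 in Dp3Yah mice, against 0.42, 0.03, 0.35, 0.40 and 0.11 in control mice. Each Dp3Yah mouse was above each control mouse, and the change was 0.51 (SE 0.096, 95% interval 0.29 to 0.73, from the pooled SD over 10 mice). The difference Gabpa minus Gabpb2 lay between 1.58 and 1.92 in Dp3Yah mice and between 0.96 and 1.34 in control mice. Here too the groups did not overlap, and the change was 0.59 (SE 0.096, 95% interval 0.37 to 0.81). With any 1 mouse left out these changes lay between 0.45 and 0.55 for Gabpb1 and between 0.54 and 0.64 for Gabpb2. The change of Gabpa thus exceeded that of either beta subunit by more than the spread between mice.

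**Figure D2:**
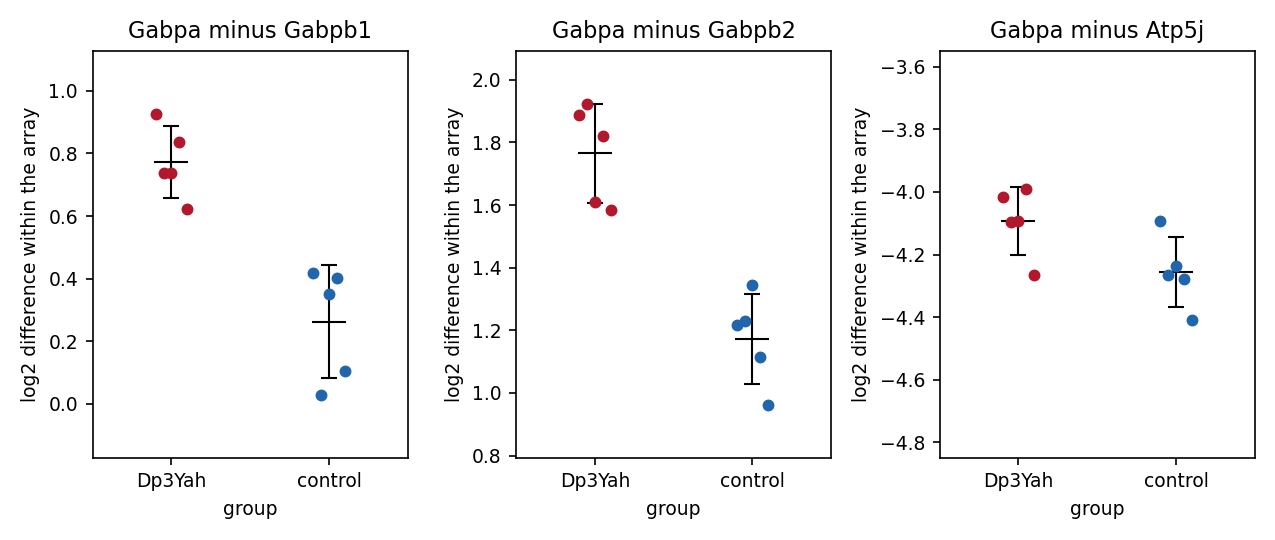
Log2 difference of Gabpa minus Gabpb1, Gabpb2 or Atp5j within each array (y axis, 1 panel for each partner), for Dp3Yah mice at the left and control mice at the right (x axis), with the group mean and SD, n = 5. The differences to Gabpb1 and Gabpb2 are separated between groups, with changes of 0.51 and 0.59, while those to Atp5j overlap.

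Atp5j, which shares the stretch of DNA shown above, was set beside Gabpa. Its values were 12.0, 11.9, 11.9, 12.0 and 12.1 in Dp3Yah mice, against 11.7, 11.6, 11.7, 11.8 and 11.8 in control mice, and all 5 Dp3Yah mice lay above every control mouse. The difference was 0.28 (SE 0.056, 95% interval 0.16 to 0.40, limma adjusted p = 0.509), which did not pass limma but was past the FCROS threshold, with f = 0.998. Within arrays, the rise of Gabpa exceeded that of Atp5j by 0.16 (95% interval 0.00 to 0.32, with a lower bound of 0.0022), and these differences overlapped between the groups. Atp5j lay at percentile 99.4 of the levels of all genes and Gabpa at 69.9, and the part of signal level in this difference was not tested. The annotated records of both genes overlap on opposite strands around their starts.

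The genes whose profile over the 10 arrays was most like that of Gabpa were found by centring each gene on its own mean and taking the root mean square difference from Gabpa. The nearest were Usp25, at 0.0845, D16Ertd472e, at 0.125, Atp5j, at 0.128, Hspa13, at 0.134, and Mrpl39, at 0.144, while the median over all other genes was 0.257. All 5 lie in the duplicated interval of chromosome 16 and share its copy number, so their nearness to Gabpa includes the difference between the groups. Usp25, which encodes a deubiquitinase, ranged between 8.84 and 9.02 in Dp3Yah mice and between 8.42 and 8.66 in control mice. Among the other 9 members, Tfb2m came nearest, at place 2652 of 19938 with a difference of 0.229. Gabpb1 was at place 16541 and Gabpb2 at place 19072, both farther from Gabpa than the median gene. The places of these members also include the difference between the groups, so that they are not separate from the changes given for each gene.

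**Figure D3:**
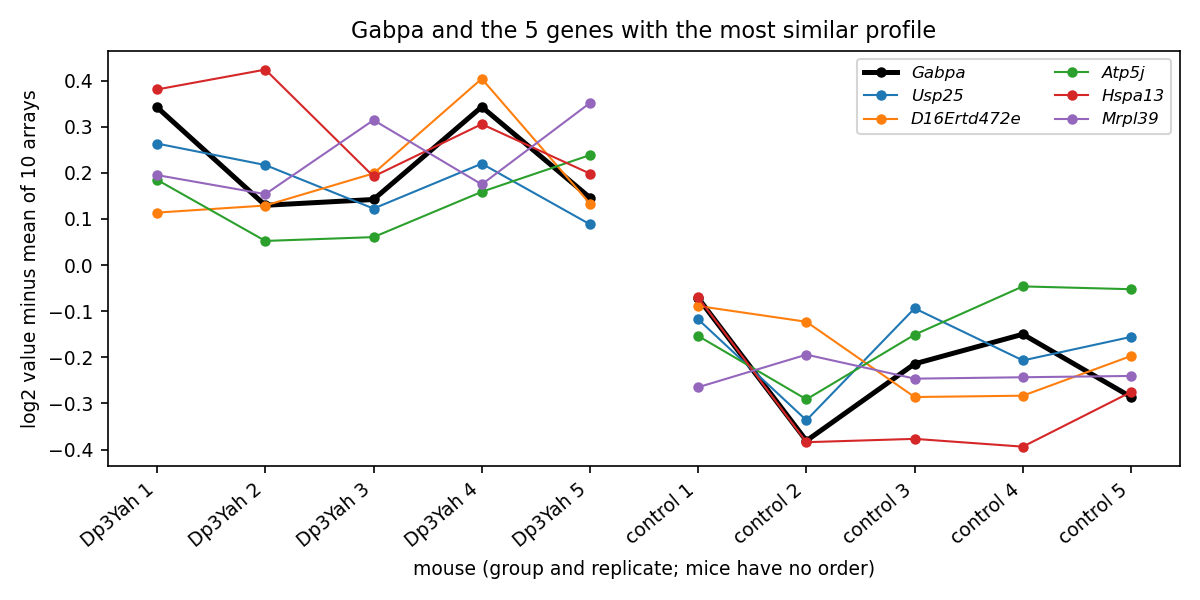
Log2 value minus the mean over 10 arrays (y axis) in each mouse (x axis, Dp3Yah replicates at the left and control replicates at the right), for Gabpa in black and the 5 genes with the smallest root mean square difference from it. Lines join the mice of a group only to guide the eye, and all 6 genes lie higher in the Dp3Yah mice than in the control mice.

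The second comparison asked whether the nuclear regulators of mitochondrial biogenesis differed between the groups. None of Nrf1, Ppargc1a and Esrra passed the test, and their values overlapped between groups. Nrf1, on chromosome 6, had values of 6.84, 6.62, 6.78, 6.80 and 6.78 in Dp3Yah mice, against 6.89, 6.84, 6.88, 6.73 and 6.68 in control mice. Only Dp3Yah replicate 2 lay below every control mouse. The change of Nrf1 was -0.04 (SE 0.055, 95% interval -0.16 to 0.08, limma adjusted p = 0.962). Esrra, on chromosome 19, had values of 7.33, 7.42, 7.20, 7.25 and 7.27 in Dp3Yah mice, against 7.34, 7.22, 7.36, 7.50 and 7.33 in control mice. Its groups spanned nearly the same range, and the change was -0.06 (SE 0.057, 95% interval -0.18 to 0.07, limma adjusted p = 0.951).

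Ppargc1a, on chromosome 5, was read by 2 probe sets, and they differed in sign. The brighter one had values of 9.40, 9.15, 9.43, 9.40 and 9.34 in Dp3Yah mice, against 9.43, 9.55, 9.38, 9.38 and 9.24 in control mice, a change of -0.05 (SE 0.065, 95% interval -0.20 to 0.09, limma adjusted p = 0.957). The dimmer one had values of 8.02, 7.71, 8.14, 8.10 and 7.97 in Dp3Yah mice, against 7.88, 8.20, 7.86, 7.70 and 7.62 in control mice, a change of 0.14 (SE 0.11, 95% interval -0.10 to 0.38). In both probe sets the lowest Dp3Yah mouse was replicate 2 and the highest control mouse was replicate 2, and the groups overlapped. The mean of both probe sets changed by 0.04, and without Dp3Yah replicate 2 the brighter one changed by -0.01.

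The proteins that transcribe the mitochondrial genome were the third group. Tfb2m had the largest change relative to its error among the genes in 2 copies. Tfb2m, on chromosome 1, had values of 7.95, 7.92, 7.97, 7.96 and 8.15 in Dp3Yah mice, against 7.88, 8.01, 7.87, 7.71 and 7.86 in control mice. Control replicate 2 lay above 4 of 5 Dp3Yah mice, and the change of 0.12 (SE 0.059, 95% interval -0.0033 to 0.25, limma adjusted p = 0.922) did not pass. Another probe set of Tfb2m gave values within 0.0244 of these on every array, also with a change of 0.12. Fitted with all probe sets, its 95% interval of 0.0025 to 0.25 did not cover 0 (limma unadjusted p = 0.0463, adjusted p = 0.963). In the same fit, the interval of the probe set chosen was -0.0081 to 0.26 (limma unadjusted p = 0.0631). Without Dp3Yah replicate 5, the highest mouse, the change was 0.09.

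Tfam, on chromosome 10, had values of 5.93, 5.87, 5.90, 5.86 and 6.09 in Dp3Yah mice, against 5.87, 5.94, 5.88, 5.44 and 5.87 in control mice. Control replicate 4 stood apart, and the other 9 mice lay between 5.86 and 6.09. The change of Tfam was 0.13 (SE 0.085, 95% interval -0.06 to 0.31, limma adjusted p = 0.930), and without control replicate 4 it was 0.04. Tfb1m, on chromosome 17, had values of 6.18, 6.25, 6.37, 6.28 and 6.19 in Dp3Yah mice, against 6.16, 6.27, 6.28, 6.20 and 6.20 in control mice, and changed by 0.03 (SE 0.046, 95% interval -0.07 to 0.13, limma adjusted p = 0.961). Polrmt, on chromosome 10, had values of 8.01, 7.74, 7.93, 7.96 and 7.91 in Dp3Yah mice, against 7.86, 7.85, 7.97, 8.06 and 8.02 in control mice. Its change was -0.04 (SE 0.059, 95% interval -0.17 to 0.09, limma adjusted p = 0.961), and without Dp3Yah replicate 2 it was 0.00011.

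**Figure D4:**
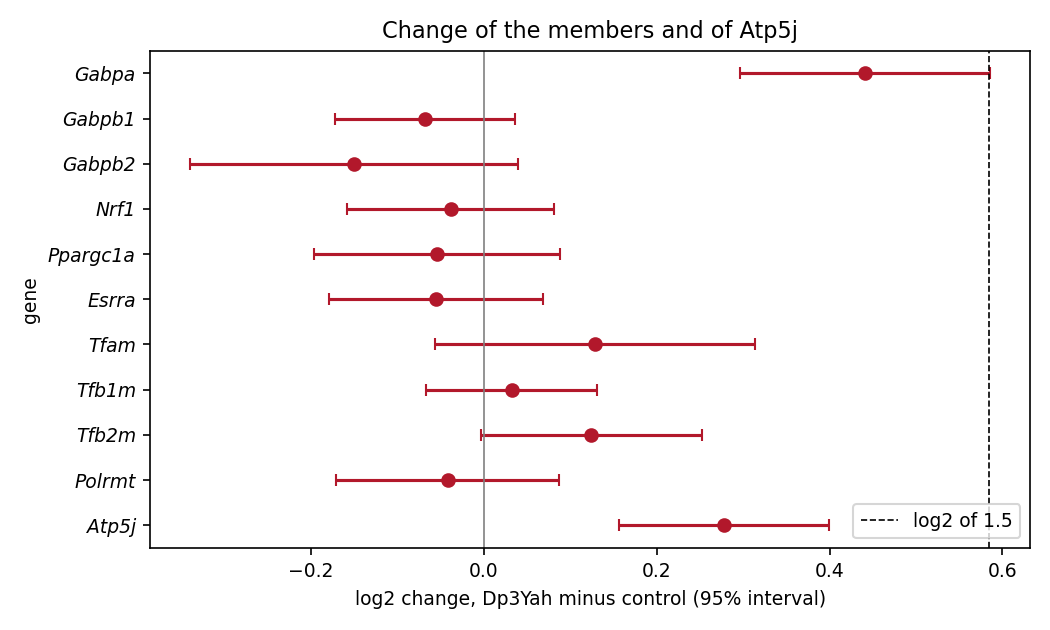
Log2 change, Dp3Yah minus control (x axis), with its 95% interval for the 10 genes and Atp5j (y axis), n = 5 mice per group; a 1.5-fold rise is drawn as a dashed line. The intervals of Gabpa and Atp5j lie above 0, and those of the other 9 genes cover 0 and end below the dashed line.

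Read together, 0 of the 10 genes passed limma at an adjusted p of 0.05, a threshold that 3 of 19939 genes, or 0.015%, passed. At an unadjusted p under 0.05, 1 of 10 was higher, Gabpa, against 2.49% of all genes, and 0 were lower, against 2.59%. Without overlap between groups, 1 of 10 was higher, against 0.522% of all genes, and 0 were lower, against 0.391%. Past the FCROS threshold were 2 of 10, Gabpa higher and Gabpb2 lower, against 4.59% of all genes in both directions. The median change of the 9 genes other than Gabpa was -0.04, against -0.0047 over all genes. All 9 had intervals that covered 0 in the probe set chosen. In the fit of all probe sets, the other Tfb2m probe set had an interval above 0 and a limma unadjusted p under 0.05. Its values were nearly those of the probe set chosen, whose interval in that fit, -0.0081 to 0.26, covered 0. The bounds of the 9 intervals, as folds, ran between 0.79 and 1.24. In 8 of the 9 the change was smaller than the larger of both group SDs. A 1.5-fold rise lay outside the interval of each of these 9 genes.

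Among the Dp3Yah mice, replicate 2 had the lowest value of its group in 7 of the 10 genes, and replicate 5 had the highest in 4. Replicate 2 also differed more from the other arrays over all genes, with a median SD of 0.192 against 0.141 to 0.170 for the other 9 mice. Without it the median change of the 9 genes was -0.0021. Leaving out any 1 mouse kept the change of Gabpa between 0.40 and 0.48 (limma adjusted p between 0.0652 and 0.331).

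Array medians lay between 5.64 and 5.71, no arrays were identical, and the median SD of a gene within a group was 0.0874. All 11 hippocampal neuron markers were measured, 10 of them above the median level of all genes, with a median change of -0.02. Of these markers 5 had positive and 6 had negative changes. C1ql2, a marker of dentate granule cells, is named after its values were seen. It was lower in every Dp3Yah mouse than in every control mouse, as were 0.391% of all genes. Its change was -0.24 (limma adjusted p = 0.708). Fibcd1, of the same list, changed by 0.25 with overlapping groups (limma adjusted p = 0.922, FCROS f = 0.990, past its threshold). The mean of 8 choroid plexus markers lay between 6.23 and 7.83 in Dp3Yah mice and between 6.11 and 7.96 in control mice, so that arrays of both groups differed in it. Positive changes were found in 9328 of 19939 genes and in 5 of 5 astrocyte markers, with a median of 0.05. Of 5 microglia markers, 5 also had positive changes, with a median of 0.08 and a list mean between 8.08 and 8.36 in Dp3Yah mice and between 8.02 and 8.14 in control mice. The part of these cell types in the values of the 10 genes was not tested.

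Lists of related genes were then described, with 101 measured genes beyond the 10, of which 0 passed limma. Of 23 coactivators and upstream regulators, all measured, 1 was higher and 1 lower at an unadjusted p under 0.05, against 2.49% and 2.59% of all genes, so that the counts lay near this background. Their median change was -0.02. The higher one was Prkaa2, the alpha2 catalytic subunit of the energy sensor AMPK, which phosphorylates PGC-1alpha. Prkaa2 had values of 7.90, 8.09, 8.02, 7.98 and 8.03 in Dp3Yah mice, against 7.80, 7.87, 7.79, 7.86 and 7.64 in control mice. Every Dp3Yah mouse lay above every control mouse, as was found for 0.522% of all genes. The difference was 0.21 (SE 0.052, 95% interval 0.10 to 0.33, limma adjusted p = 0.922). With f = 0.994 Prkaa2 was past the FCROS threshold, as were 4.59% of all genes in either direction. The other catalytic subunit, Prkaa1, changed by 0.12 with overlapping groups. The lower one was Pprc1, a relative of PGC-1alpha that is induced by growth signals, with a change of -0.13 (SE 0.058, 95% interval -0.26 to -0.01, limma adjusted p = 0.922). Pprc1 ranged between 6.41 and 6.71 in Dp3Yah mice and between 6.63 and 6.74 in control mice. Yy1, a zinc finger factor that cooperates with PGC-1alpha, changed by -0.08.

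Of 23 genes for the maintenance and expression of mitochondrial DNA, 21 were measured, and 0 reached an unadjusted p of 0.05. Their median change was 0.0018, with 11 positive and 10 negative. Tk2, the mitochondrial thymidine kinase, changed by 0.17 (SE 0.083, 95% interval -0.01 to 0.35, limma adjusted p = 0.922). Lrpprc, which stabilises mitochondrial messenger RNAs, changed by 0.11 (SE 0.060, limma adjusted p = 0.922). Both were past the FCROS threshold, Tk2 with f = 0.989 and Lrpprc only just, with f = 0.9753. They were 2 of the 21 genes, against 4.59% of all genes past FCROS in either direction, and both overlapped between groups. Primpol, a primase and polymerase, changed by -0.16, and by -0.08 without Dp3Yah replicate 2. Polg2, the accessory subunit of the mitochondrial DNA polymerase, also changed by -0.08.

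Cytochrome c and the nuclear subunits of cytochrome oxidase, a group known to be bound by GABP and NRF-1, lay close to control. Of 11 genes 10 were measured, 9 of them had positive changes, and 0 reached an unadjusted p of 0.05. Their changes ran between -0.06 and 0.05 with a median of 0.01. Cox8a changed by -0.06 (95% interval -0.14 to 0.03), Cox4i1 by 0.05 (95% interval -0.06 to 0.16), Cox7a2 by 0.03 and Cox6a1 by 0.02. Of 15 genes encoded in the mitochondrial genome, only 2 were read by a probe set of their own. ND3, a complex I subunit, changed by 0.06 (95% interval -0.07 to 0.19), and COX2, the cytochrome oxidase subunit encoded in the mitochondrial genome, changed by 0.01 (95% interval -0.14 to 0.16).

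Of 11 genes known as targets of PGC-1alpha and ERRalpha, 8 were measured, 0 reached an unadjusted p of 0.05, and the median change was -0.0041. Pdk4, a kinase that restrains pyruvate dehydrogenase, changed by -0.13 with a wide interval of -0.44 to 0.19. Idh3a, of the citric acid cycle, and the fusion protein gene Mfn2 both changed by 0.02, and Atp5b, the beta subunit of ATP synthase, changed by 0.01. Of 9 targets of GABP known outside mitochondria, 9 were measured and 0 reached an unadjusted p of 0.05, with a median of -0.0081. The acetylcholine receptor subunits Chrnd and Chrne, targets in muscle, changed by 0.09 and -0.07, and only 3 of the 9 genes were above the median level of all genes. Uhmk1, a kinase, changed by 0.09, and the neutrophil elastase gene Elane changed by -0.06.

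Of 26 ETS family genes 25 were measured, and Gabpa was the only one at an unadjusted p under 0.05. Over all genes, 2.49% were higher and 2.59% lower at this p, so that the count lay near this background. The family had a median change of -0.02. Ets1 changed by 0.09 (SE 0.046, limma adjusted p = 0.922), Spib by -0.07 and Elf3 by -0.09.

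PGC-1alpha is abundant in fast-spiking interneurons, where the genes Pvalb, Syt2, Nefh and Cplx1 are known to depend on it in the mouse. All 4 had negative changes, as had 10611 of 19939 genes, with a median of -0.17. At an unadjusted p under 0.05, 1 of 4 was lower, against 2.59% of all genes. Nefh, the heavy neurofilament subunit, had values of 8.13, 7.84, 7.98, 8.23 and 8.13 in Dp3Yah mice, against 8.25, 8.15, 8.16, 8.41 and 8.40 in control mice. The groups overlapped at 8.15 to 8.23, and the change was -0.21 (SE 0.078, 95% interval -0.38 to -0.04, limma adjusted p = 0.922, FCROS f = 0.0074, past its threshold). Syt2, a synaptic calcium sensor, changed by -0.20 (95% interval -0.55 to 0.15), Cplx1, which regulates vesicle fusion, by -0.13 and Pvalb, the calcium buffer parvalbumin, by -0.08. The mean of these 4 genes was 8.51 in Dp3Yah replicate 2 and lay between 8.90 and 9.09 in the other 4 Dp3Yah mice, against 8.91 to 9.13 in control mice. Without that mouse the median change was -0.04, and Syt2 changed by -0.03. A separate list of 7 general interneuron markers had a median change of 0.03, with 4 positive and 3 negative changes between -0.11 and 0.21. The mean of this list was also lowest in Dp3Yah replicate 2, at 8.81 against 8.92 to 9.16 in the other 9 mice.

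**Figure D5:**
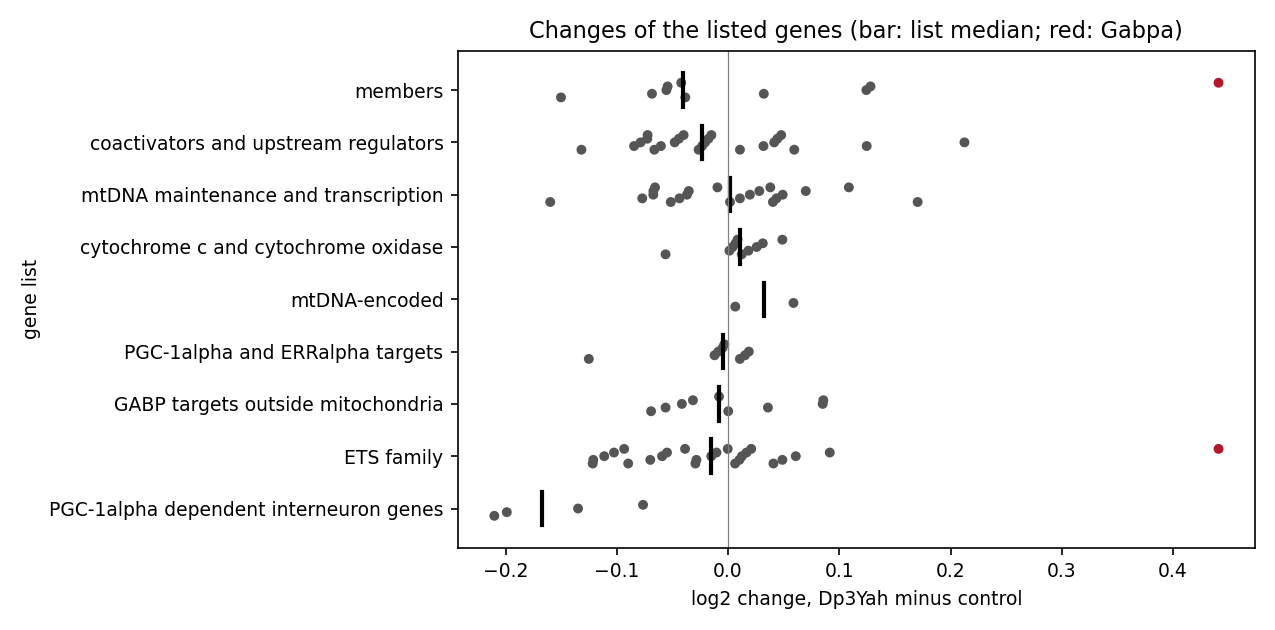
Log2 change, Dp3Yah minus control (x axis), of every measured gene in each list (y axis), with the list median as a black bar and Gabpa in red. Gabpa stands at 0.44, and the other listed genes lie between -0.21 and 0.21.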

How the data were processed

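Hippocampal RNA of 5 Dp3Yah and 5 control mice was measured on 1 Affymetrix array per mouse. The deposited values are log2 intensities, 1 per probe set, made per the submitters' processing notes with RMA, which corrects background, normalises across arrays and summarises probes. These notes also name limma and mm10, and give no tool versions. RMA brings all arrays to 1 distribution, so that a shift of all genes cannot be seen. Of 35556 probe sets, 21789 were annotated to 1 gene and gave 19939 genes, each represented by the probe set of highest mean. Symbols and positions came from RefSeq (GRCm38.p6), which held 19856 of these genes, and the other 83 kept the platform's symbol. Groups came from the sample titles.

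The Dp3Yah minus control difference of each gene was fitted by limma 3.58.1 (R 4.3.3) without covariates, and moderated two-sided p values were adjusted by Benjamini-Hochberg across the 19939 genes, with a threshold of 0.05. The rank test of the study, FCROS, was rewritten from its principle (trim 0.25, f under 0.025 or over 0.975). Here f places the trimmed mean rank of a gene within those of all genes. Its thresholds therefore mark the ends of that distribution and control no error rate. Differences within arrays were given intervals from the pooled SD. The scripts were tested on simulated data. Named genes were the 10 members, Atp5j, up to 4 genes of each list with the smallest unadjusted p and the 5 profiles most like Gabpa. The members and lists were chosen with earlier results of these data known. Alternatives were a replicate block, other uses of probe sets, leaving out dim genes, further normalisation, other variance models, array weights, FCROS and leaving out each mouse. Replicates are separate mice, and their number limits the precision.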

Additional observations from a re-analysis of the deposited data

Results flagged for a closer look

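In 22 groups of 5 values (the 10 genes and Atp5j in both genotypes), 2 held a mouse whose gap to its nearest neighbour took up more than 0.71 of the range of the group, a limit that chance passes in about 1 in 20 groups. Tfam in control replicate 4 was 5.44, with the next control mouse at 5.87 and the highest at 5.94, a gap of 0.848 of the range. Tfb2m in Dp3Yah replicate 5 was 8.15, with the next Dp3Yah mouse at 7.97 and the lowest at 7.92, a gap of 0.787 of the range. The same mouse also had the highest Tfam value of its group, 6.09. No explanation was tested.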

How the results depend on the processing

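Under the alternatives Gabpa kept its direction, with changes between 0.44 and 0.47, and limma adjusted p values between 0.0307 and 0.223. Gabpa passed at 0.44 with the replicate number as a block (0.0452), at 0.44 with a trended and robust variance (0.0447) and at 0.47 with array weights (0.0307). By FCROS, whose thresholds control no error rate, it was past the cut at 0.44. It did not pass in any of the 10 fits that left out a mouse, where its change lay between 0.40 and 0.48. Same-numbered mice deviated together, with r over 0.1, in 2 of 5 pairs, and 4 of 10 mice correlated best with their own number. With only 5 pairs, this check cannot settle whether the numbers pair the mice.

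Over all genes, 3 passed, against 1 when all probe sets were tested, 6 with a trended and robust variance, 5 with array weights and 915 by FCROS. Leaving out a mouse gave between 1 and 4, with 1 without Dp3Yah replicate 4 or without control replicate 3, 4 or 5. The median change of the 9 genes other than Gabpa lay between -0.060 and -0.0021, the last without Dp3Yah replicate 2.

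Changes near 0 turned sign. Ppargc1a was 0.041 for the mean of its probe sets, Idh3a was -0.0029 after a second quantile normalisation and COX2 was -0.0029 with array weights. With a mouse left out the ranges were -0.068 to 0.00011 for Polrmt, -0.0023 to 0.035 for Cox6a1, -0.011 to 0.032 for Mfn2, -0.033 to 0.063 for COX2, -0.0017 to 0.036 for Idh3a and -0.0032 to 0.031 for Atp5b. The causes were not tested. Members below the median level of all genes have no value under the filter on dim genes. The alternatives for gene lists and for the other probe sets of members were chosen after seeing the data.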
